A study of Mus musculus with 8 samples.

Results

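Programmed cell death by apoptosis is carried out by caspases, proteases that are switched on by 2 routes. In the extrinsic route, death receptors at the cell surface such as Fas bind their ligands and recruit the adaptor Fadd, which gathers and activates the initiator caspase Casp8. In the intrinsic route, BH3-only proteins release the pore formers of the Bcl2 family from their anti-apoptotic relatives, the mitochondrial outer membrane becomes leaky, and cytochrome c assembles with Apaf1 into the platform that activates Casp9. Inhibitor of apoptosis proteins restrain this machinery, and several of its genes are known targets of interferons, of NF-kB or of p53.

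The genes described here were a list of 35 apoptosis genes, set by name: the Bcl2 family, caspases, inhibitor of apoptosis proteins, death receptors with a ligand and adaptors, and Trp53inp1. The list was chosen with earlier results of these data known, so the shares of it that were called are not independent of them. Of the probe sets annotated to a single symbol, the one with the greatest mean signal on the 8 arrays stood for its gene. By this rule 33 of the 35 genes were found, on 68 probe sets, out of 12393 genes in all; Bax and Ripk1 had no such probe set. A total of 31 of the 33 exceeded the floor on 1 or more arrays, out of 9626 genes that did, and 23 exceeded it on all 8. The floor, 122.2 on the scaled signal, is the value to which lower signals were raised, because low signals carry little information. The BH3-only gene Bik, at 12.2 to 100.4, and the inflammatory caspase Casp1, at 1.90 to 17.9, stayed under it on all 8 arrays.

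The study transfected mouse embryonic fibroblasts of a C57BL/6 x 129Ola background with poly(dA-dT)-poly(dT-dA), a synthetic right-handed double-stranded DNA called B-DNA, or mock-transfected them, and extracted RNA after 4 h. The products of Tbk1 and Ikbke are kinases that phosphorylate interferon regulatory factors, and the comparison asks which of them the response to cytosolic DNA needs. The 4 genotypes were wild type (WT, Tbk1+/+ Ikbke+/+), Tbk1-/- (Ikbke+/+), Ikbke-/- (Tbk1+/+) and Tbk1-/- Ikbke-/-. Each genotype had 1 mock and 1 B-DNA array, so no array had a replicate, and the labels do not say how many embryos or cultures an array stands for. A ratio of 2 arrays is therefore given without a test, and it is called higher or lower where it reached 2-fold with the higher signal at 244.3 or more. The test available is limma across the 4 genotypes, with the B-DNA over mock ratios of the 2 Tbk1+/+ pairs set against those of the 2 Tbk1-/- pairs.

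The labels were checked against genes outside the list. The Tbk1 probe set read 501 (mock) and 989 (B-DNA) in WT, 472 and 910.0 in Ikbke-/-, 226 and 305 in Tbk1-/-, and 290.0 and 390 in Tbk1-/- Ikbke-/- cells. It was thus lower, but not absent, where Tbk1 was deleted, and whether its probes lie in the deleted part is not given in the sources used here. Ikbke was under the floor on all 8 arrays, so it checks nothing. All 15 interferon-stimulated reference genes on the array were called higher with B-DNA in WT (median log2 ratio 5.32) and in Ikbke-/- cells (6.02), against 1 and 0 in the Tbk1-/- and Tbk1-/- Ikbke-/- cells. Of 15 fibroblast markers, 12 to 15 were at 244.3 or more on each array, but their levels differed between genotypes. Against the WT mock array, 0 of the 15 were called higher and 4 lower in Tbk1-/- cells (2.23% and 3.33% of all genes). The counts were 3 and 4 in Ikbke-/- (2.31% and 3.13%) and 2 and 2 in Tbk1-/- Ikbke-/- cells (5.56% and 5.51%). Of 7 epithelial markers above the floor, 1 was called between mock arrays, Krt19, at 995 in Tbk1-/- against 16.3 in WT cells. The part of these differences in the results below was not tested. The 22 macrophage and leukocyte markers summed to 22887 on the WT mock array, 6705 on the WT B-DNA array and 1716 to 2119 on the other 6, and 15, 12 and 1 to 2 of them reached 244.3. Every value taken against the WT mock array includes that difference, and its part in the results below was not tested. Xist read 2950 or more on the 4 Ikbke+/+ arrays and 209 or less on the 4 Ikbke-/- arrays, and the Y-linked gene Eif2s3y was at 3.63 or less on the former and at 153 or more on the latter, so the sex of the embryos and the Ikbke genotype cannot be told apart.

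With B-DNA, 5 of the 31 apoptosis genes were called higher in WT cells (Casp4, Fas, Birc2, Casp12 and Casp2), where 3.27% of all 9626 genes were. In Ikbke-/- cells 10 of 31 were called higher (Casp4, Casp12, Fas, Tnfsf10, Bad, Trp53inp1, Birc2, Bcl2l11, Bbc3 and Apaf1), where 3.55% of all genes were. In Tbk1-/- cells 0 of 31 were called higher, where 0.291% of all genes were, and in Tbk1-/- Ikbke-/- cells 0 of 31, where 0.540% were. The lower calls were 1 of 31 in WT cells (Bad, with a background of 1.89%) and 0 of 31 in the Tbk1-/- (0.405%), Ikbke-/- (1.64%) and Tbk1-/- Ikbke-/- cells (0.748%). The genes called higher included those of a death receptor, a death ligand, caspases, BH3-only proteins, Apaf1 and an inhibitor of apoptosis protein, so activators and a restraint of the pathway were both among them. The median log2 ratio over the 31 genes was 0.14 in WT, 0.03 in Tbk1-/-, 0.47 in Ikbke-/- and 0.18 in Tbk1-/- Ikbke-/- cells, beside 0.00 over all genes in each genotype. In bulk RNA like this, fewer cells of a type and less RNA per cell cannot be told apart. Without the further scaling, the median of genes above the floor on all arrays was -0.48 in WT cells in place of -0.08. The median of the apoptosis genes turned to -0.03, and 2 were called higher (Casp4 and Fas) and 2 lower (Bad and Pmaip1). The split over all genes was then 178 higher and 725 lower in WT cells, against 315 and 182 with scaling, and 271 and 424 in Ikbke-/- cells, against 342 and 158; in Ikbke-/- cells 7 apoptosis genes were still called higher and 0 lower.

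**Figure D1:**
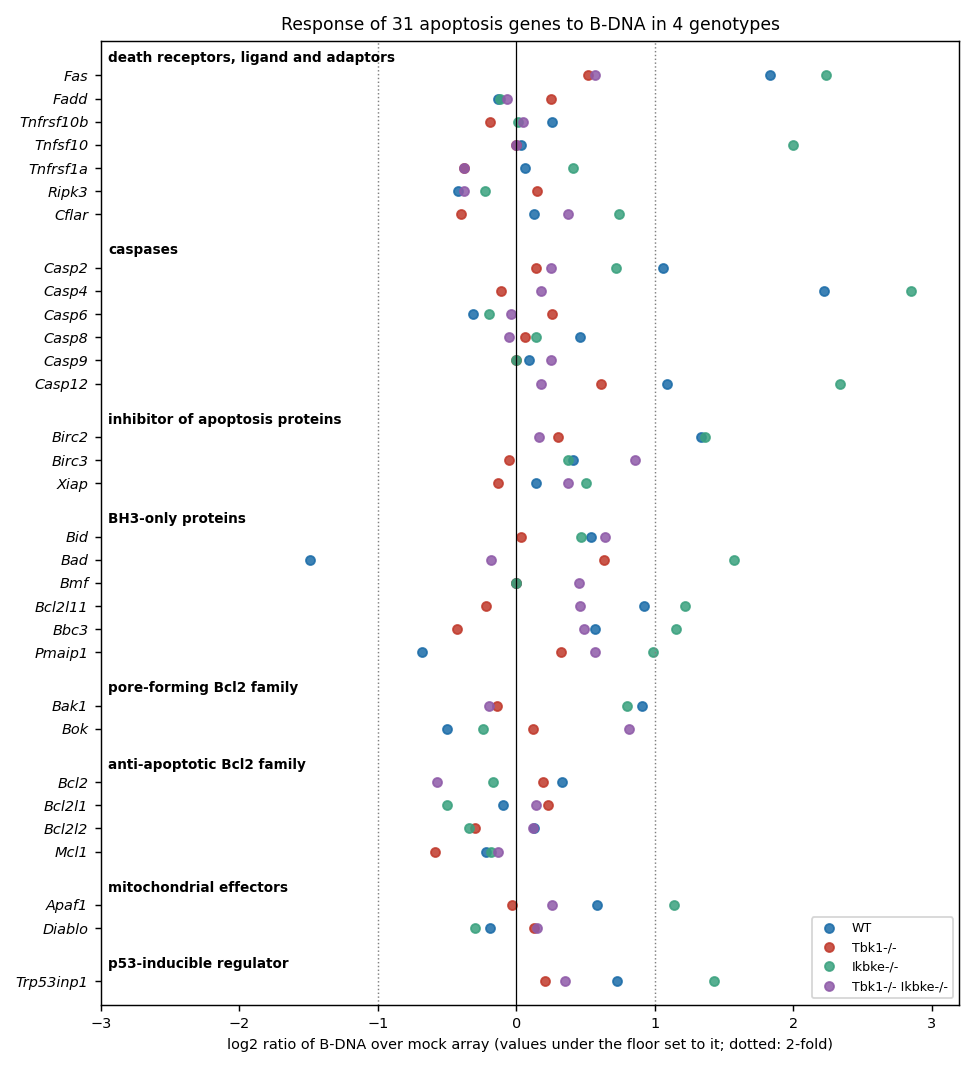
Each point is the log2 ratio of the B-DNA array over the mock array for 1 apoptosis gene (rows, grouped by role) in 1 of 4 genotypes (colours, 1 array per condition); dotted lines mark 2-fold. Casp4, Fas, Casp12 and Birc2 lie beyond the right dotted line in both WT and Ikbke-/- cells, and no Tbk1-/- or Tbk1-/- Ikbke-/- point does.

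Casp4, the caspase (also called caspase-11 in the mouse) that senses bacterial lipopolysaccharide in the cytosol and triggers an inflammatory, lytic death, had the largest ratio of the 31 genes in WT cells and, of those measured above the floor on both arrays, in Ikbke-/- cells. Its signal was 140 (mock) and 651 (B-DNA) in WT, 147 and 136 in Tbk1-/-, 131 and 946 in Ikbke-/-, and 104 and 138 in Tbk1-/- Ikbke-/- cells. The mock arrays all lay near the floor, and the B-DNA signal stood apart in the 2 genotypes that keep Tbk1. The B-DNA over mock ratio was 4.65-fold in WT and 7.21-fold in Ikbke-/- cells. The log2 ratio of the Tbk1-/- pairs less that of the Tbk1+/+ pairs was -2.50 ± 0.24 (SE, 2 pairs against 2; limma adjusted p 0.0054). Fitted with 1 pair of arrays left out and no Ikbke term, the difference was -2.82 to -2.18 and did not pass (limma adjusted p 0.28 to 0.4), and neither did any other gene. Without the WT pair it was -2.82. The part of the macrophage marker signal in this difference was not tested. The call also depended on the treatment of low signals. The difference was -2.38 with the floor at the 20th percentile (limma adjusted p 0.081), kept its size of -2.50 with no filter on low values (limma adjusted p 0.29), and was -1.41 with the floor at the 60th percentile (limma adjusted p 0.013), where the WT log2 ratio was 1.14.

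Fas, the receptor for Fas ligand, was the other gene whose response passed the test. Its signal was 295 (mock) and 1049 (B-DNA) in WT, 66.7 and 175 in Tbk1-/-, 215 and 1015 in Ikbke-/-, and 76.2 and 181 in Tbk1-/- Ikbke-/- cells. Both levels were lower in the genotypes without Tbk1: their B-DNA arrays did not reach the mock arrays of the other genotypes. The ratio was 3.55-fold in WT and 4.72-fold in Ikbke-/- cells, and at least 1.43-fold and at least 1.48-fold in Tbk1-/- and Tbk1-/- Ikbke-/- cells, whose mock signals were under the floor. The limma difference of log2 ratios was -1.49 ± 0.24 (SE, 2 pairs against 2; adjusted p 0.038). That size depended on the floor: with the floor at the 20th percentile of the signals, Fas was called higher in all 4 genotypes and the difference was -0.71 (limma adjusted p 0.44). Leaving out 1 pair gave differences of -1.70 (without the WT pair) to -1.29 that did not pass (limma adjusted p 0.29 to 0.4). The level of Fas by Tbk1 genotype did not pass either (limma adjusted p 0.6).

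Casp4 and Fas are shown by their promoters, with that of Casp12, the next gene to Casp4, because these 3 genes had the highest ratios in Ikbke-/- cells among those above the floor on both arrays. Each window runs from 250 bases before to 50 bases after the transcription start of a RefSeq transcript (GRCm38.p6), 5′ to 3′ on the gene's strand, which is the forward strand for all 3. They lie at chr9:5308599-5308898 (Casp4), chr9:5345226-5345525 (Casp12) and chr19:34290409-34290708 (Fas). Capitals mark matches to TTCNNNGAA, the form bound by STAT factors.
Casp4: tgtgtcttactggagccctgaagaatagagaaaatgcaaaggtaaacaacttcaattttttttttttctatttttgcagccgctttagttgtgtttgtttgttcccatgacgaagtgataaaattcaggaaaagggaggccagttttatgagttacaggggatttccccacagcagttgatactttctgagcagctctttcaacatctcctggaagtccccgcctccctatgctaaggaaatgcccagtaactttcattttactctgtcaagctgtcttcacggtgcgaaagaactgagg
Casp12: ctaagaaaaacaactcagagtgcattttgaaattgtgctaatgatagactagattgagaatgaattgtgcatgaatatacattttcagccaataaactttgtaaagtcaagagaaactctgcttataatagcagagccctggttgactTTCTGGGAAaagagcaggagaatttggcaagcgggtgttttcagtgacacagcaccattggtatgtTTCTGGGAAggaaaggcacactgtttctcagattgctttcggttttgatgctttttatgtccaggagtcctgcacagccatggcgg
Fas: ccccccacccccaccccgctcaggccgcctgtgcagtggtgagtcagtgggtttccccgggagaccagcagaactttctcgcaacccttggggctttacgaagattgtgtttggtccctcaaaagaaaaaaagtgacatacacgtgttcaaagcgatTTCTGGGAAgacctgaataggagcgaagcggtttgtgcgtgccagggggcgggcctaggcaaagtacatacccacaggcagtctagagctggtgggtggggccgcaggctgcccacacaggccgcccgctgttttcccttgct
The Casp12 window held 2 matches, whose first bases lie 102 and 36 bases before the start, and the Fas window held 1, at 93 bases before it. The Casp4 window held none. Of 44 windows of the 31 listed genes in the RefSeq table, 4 held TTCNNNGAA (Casp12, Fas, Ripk1 and Tnfrsf1a), where 8.30% of all 32851 windows did. The interferon-stimulated response element, searched as GAAA repeated after any 2 bases, was in 2 of 44 (Cflar and Ripk1), against 3.44% of all windows. The NF-kB form, GGG and then CC after any 5 bases, was in 32 of 44, against 50.8%. Both strands were searched and matches of different motifs may share bases. A match here is a run of letters and says nothing of binding.

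Of the remaining death receptor genes, Tnfsf10 was called in 1 genotype. Tnfsf10, the ligand TRAIL, read 30.0 (mock) and 125 (B-DNA) in WT, 22.9 and 53.6 in Tbk1-/-, 10.5 and 490 in Ikbke-/-, and 33.6 and 45.2 in Tbk1-/- Ikbke-/- cells. The Ikbke-/- B-DNA array alone stood well above the floor, at least 4.01-fold over its mock array, while the WT B-DNA array lay just above the floor. The ratio is a bound and cannot be ranked against those of Casp4, Casp12 and Fas: with the floor at the 20th percentile its log2 value was 3.68. The difference of its log2 ratios by Tbk1 was -1.02 ± 0.45 (limma adjusted p 0.33). The TRAIL receptor gene Tnfrsf10b was at 158 to 257, the adaptor gene Fadd at 322 to 512.1, and the TNF receptor gene Tnfrsf1a at 2231 to 3493 over the 8 arrays. None of these 3 was called in any B-DNA over mock pair.

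2 genes that act at the receptor complex differed between mock arrays. Ripk3, the kinase of necroptosis, read 777 (mock) and 580 (B-DNA) in WT, 586 and 650 in Tbk1-/-, 517 and 441 in Ikbke-/-, and 159 and 105 in Tbk1-/- Ikbke-/- cells. Its signal in the Tbk1-/- Ikbke-/- cells was thus below that of every other array, and the mock ratio to WT was 4.88-fold lower. Cflar, whose product c-FLIP blocks Casp8 activation, read 700 and 766 in WT, 544 and 412 in Tbk1-/-, 322 and 536 in Ikbke-/-, and 275 and 355 in Tbk1-/- Ikbke-/- cells. Its mock signal was 2.17-fold below WT in Ikbke-/- and 2.55-fold below in Tbk1-/- Ikbke-/- cells, calls that were lost when its 4 probe sets were averaged (log2 ratios -0.46 and -0.41).

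**Figure D2:**
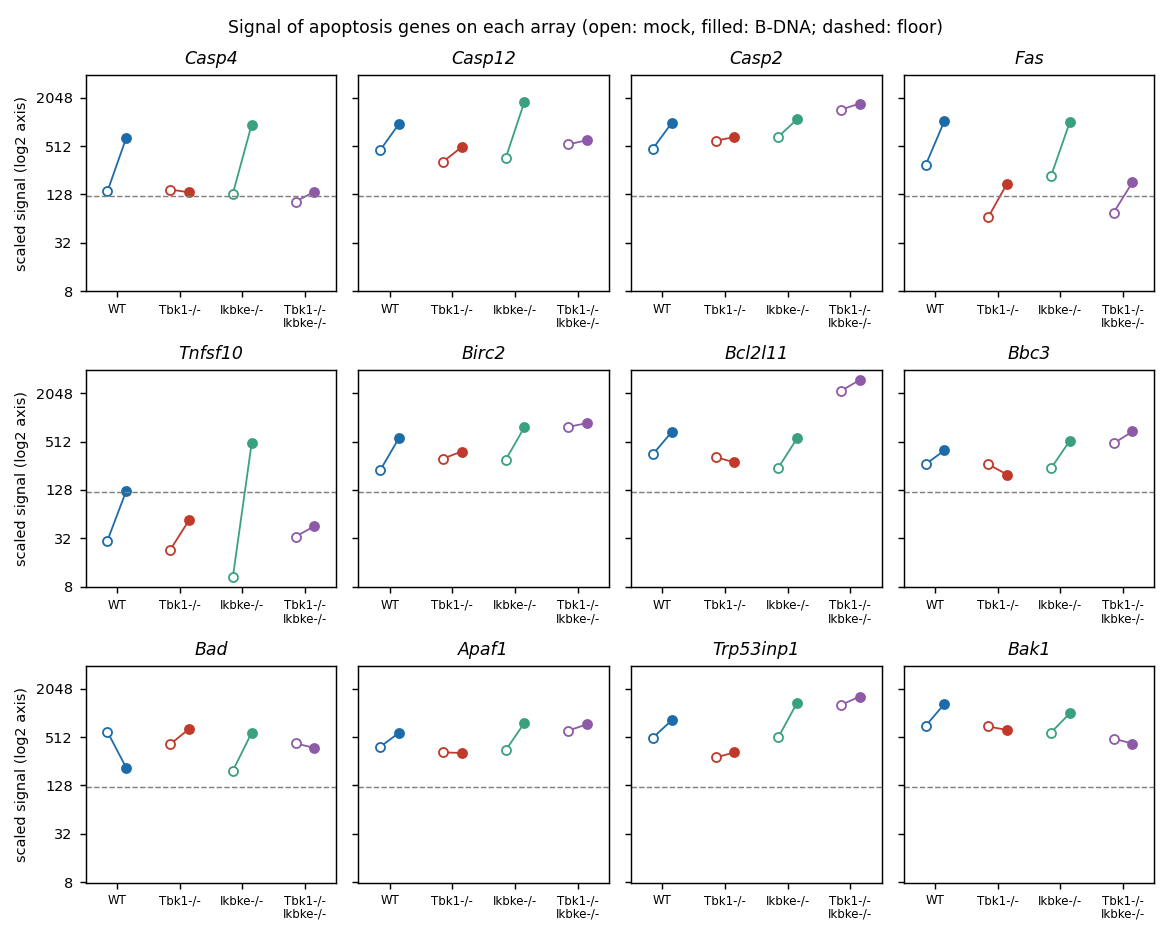
Scaled signal (log2 axis) of 12 apoptosis genes on the 8 arrays, 1 panel per gene; open points are mock arrays, filled points B-DNA arrays, lines join a genotype's pair, and the dashed line is the floor of 122.2. Casp4 starts from 104 to 147 on the mock arrays and reaches 651 and 946 in WT and Ikbke-/- cells, while Bcl2l11 is highest on the 2 Tbk1-/- Ikbke-/- arrays.

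Among the other caspases, Casp12 and Casp2 were called and Casp6, Casp8 and Casp9 were not. Casp12, an inflammatory-group caspase linked to endoplasmic reticulum stress, read 455 (mock) and 968 (B-DNA) in WT, 325 and 498 in Tbk1-/-, 359 and 1818 in Ikbke-/-, and 537 and 607 in Tbk1-/- Ikbke-/- cells. The ratio was 2.13-fold in WT and 5.07-fold in Ikbke-/- cells, against 1.53-fold and 1.13-fold without Tbk1. Its WT call was lost without further scaling (log2 ratio 0.69). The difference by Tbk1 was -1.32 ± 0.41 and did not pass (limma adjusted p 0.19). A second Casp12 probe set read 105 and 385 in WT, 185 and 170 in Tbk1-/-, 121 and 660 in Ikbke-/-, and 380 and 259 in Tbk1-/- Ikbke-/- cells.

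Casp2, an initiator caspase linked to the response to DNA damage, read 475 and 993 in WT, 600 and 660 in Tbk1-/-, 669 and 1102 in Ikbke-/-, and 1459 and 1734 in Tbk1-/- Ikbke-/- cells. Its ratio was 2.09-fold in WT and 1.65-fold in Ikbke-/- cells, so it was called in WT alone. That call was lost without further scaling (log2 ratio 0.66). The difference by Tbk1 was -0.70 ± 0.25 (limma adjusted p 0.24). The 2 Tbk1-/- Ikbke-/- arrays were the highest of the 8. Casp8, the initiator of the extrinsic route, varied little, from 747 to 1029, and the executioner Casp6 lay at 223 to 469. Casp9, the initiator of the intrinsic route, was near or under the floor at 54.9 to 176.

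By the gene order of the RefSeq table, Casp1, Casp4 and Casp12 are neighbours on chromosome 9, as are Birc2 and Birc3, with 15 protein-coding genes between Casp12 and Birc2. Casp4, Casp12 and Birc2 were called with B-DNA, while Casp1 was under the floor and Birc3 was not called, so nothing can be said of a response of Casp1.

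Birc2 encodes cIAP1, a ubiquitin ligase that acts at the TNF receptor and restrains cell death there. It read 225 (mock) and 567 (B-DNA) in WT, 314 and 386 in Tbk1-/-, 301 and 773 in Ikbke-/-, and 780 and 872 in Tbk1-/- Ikbke-/- cells. The ratio was 2.52-fold in WT and 2.56-fold in Ikbke-/- cells, and 1.23-fold and 1.12-fold in the genotypes without Tbk1. Its WT call was lost without further scaling and with the floor at the 60th percentile (log2 ratios 0.93 and 0.94). The difference by Tbk1, -1.12 ± 0.23, fell short of the threshold (limma adjusted p 0.083). The Tbk1-/- Ikbke-/- mock array already stood at the level of the highest B-DNA array of the other genotypes. Birc3, which encodes the related cIAP2, was at 274 to 717, and Xiap, the direct inhibitor of caspases, at 515 to 1030, both without a call. A weaker Xiap probe set read 97.6 and 252 in WT cells. Its log2 ratio there, at least 1.05 with the mock signal under the floor, just meets the call, which it did not meet in the other genotypes.

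Of the 6 BH3-only genes above the floor, 3 were called higher with B-DNA in Ikbke-/- cells (3.55% of all genes) and 1 lower in WT cells (1.89%). Bcl2l11, which encodes Bim, read 356 and 674 in WT, 329 and 283 in Tbk1-/-, 241 and 563 in Ikbke-/-, and 2189 and 3004 in Tbk1-/- Ikbke-/- cells. The B-DNA signal was 2.33-fold that of the mock array in Ikbke-/- cells and 1.89-fold in WT cells, the latter just under the call. With the mean over its 5 probe sets the Ikbke-/- log2 ratio was 0.71 in place of 1.22, which ended the call. A weaker Bcl2l11 probe set read 113.5 and 256 in Ikbke-/- cells, a log2 ratio of at least 1.07 that meets the call. The remaining ones gave 0.84, 0.40 and 0.00 there. On the probe set that stood for Bcl2l11, the difference by Tbk1 was -0.95 ± 0.24 (limma adjusted p 0.13). The mock level in Tbk1-/- Ikbke-/- cells was 6.15-fold that of WT, a log2 ratio of 2.62 that was 1.89 with the mean over probe sets and 1.86 without scaling. Bbc3, which encodes Puma, a p53 target, read 268 and 397 in WT, 268 and 199 in Tbk1-/-, 237 and 525 in Ikbke-/-, and 487 and 685 in Tbk1-/- Ikbke-/- cells. Its ratio was 2.22-fold in Ikbke-/- and 1.48-fold in WT cells, and the difference by Tbk1 was -0.83 ± 0.24 (limma adjusted p 0.17).

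Bad, which binds Bcl2l1 when dephosphorylated, gave opposite ratios in WT and Ikbke-/- cells. It read 596 (mock) and 212 (B-DNA) in WT, 417 and 646 in Tbk1-/-, 195 and 581 in Ikbke-/-, and 427 and 377 in Tbk1-/- Ikbke-/- cells. The ratio was 2.81-fold lower in WT and 2.98-fold higher in Ikbke-/- cells. Its second probe set read 373 and 408 in WT and 268 and 358 in Ikbke-/- cells (log2 ratio 0.13 and 0.42), so the probe sets disagree and the calls rest on 1 of them. Pmaip1, which encodes Noxa, read 453 and 282 in WT, 198 and 247 in Tbk1-/-, 224 and 443 in Ikbke-/-, and 64.0 and 182 in Tbk1-/- Ikbke-/- cells. Its signal was highest on the WT mock array, and the 3 mutant mock arrays were 2.29-fold, 2.02-fold and at least 3.71-fold below it. The Ikbke-/- B-DNA array, at 443, was close to the WT mock array. The part of the macrophage marker signal in the Pmaip1 values was not tested. Bid, which links Casp8 to the mitochondrion, lay at 774 to 1959 with ratios of 1.02-fold to 1.56-fold, and Bmf was at 30.6 to 167. Neither was called on the probe set that stood for it. A weaker Bid probe set read 298 and 741 in WT cells, a log2 ratio of 1.32 that meets the call. In Tbk1-/-, Ikbke-/- and Tbk1-/- Ikbke-/- cells its log2 ratios were -0.53, 0.35 and 0.78, which do not meet it.

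Of the pore formers, Bak1 read 706 and 1326 in WT, 695 and 629 in Tbk1-/-, 584 and 1014 in Ikbke-/-, and 490 and 426 in Tbk1-/- Ikbke-/- cells. The ratios were 1.88-fold and 1.74-fold where Tbk1 was present, under the 2-fold call, and the difference by Tbk1 was -1.03 ± 0.23 (limma adjusted p 0.10). It passed with the floor at the 60th percentile (limma adjusted p 0.035) and in no other setting, with -0.71 (limma adjusted p 0.22) for the mean over its probe sets. Bok read 577 and 408 in WT, 566 and 616 in Tbk1-/-, 333 and 282 in Ikbke-/-, and 278 and 488 in Tbk1-/- Ikbke-/- cells, whose mock level was 2.07-fold below WT. Its difference by Tbk1 was positive, 0.84 ± 0.24, and did not pass (limma adjusted p 0.18).

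The anti-apoptotic relatives were not called with B-DNA in any genotype on the probe sets that stood for them. Mcl1, a short-lived guard of Bak1, read 2747 and 2354 in WT, 3240 and 2159 in Tbk1-/-, 2806 and 2474 in Ikbke-/-, and 1328 and 1211 in Tbk1-/- Ikbke-/- cells, the lowest of the 8. Its mock level in those cells was 2.07-fold below WT. Bcl2 lay at 92.9 to 213, near the floor, Bcl2l1 (Bcl-xL) at 492 to 828 and Bcl2l2 (Bcl-w) at 472 to 974. A second Bcl2l1 probe set read 298 and 135 in Tbk1-/- Ikbke-/- cells. That log2 ratio of -1.14 meets the call, while the first probe set gave 0.14. In Ikbke-/- cells the second gave -0.96 and the first -0.50, and in WT and Tbk1-/- cells the second gave 0.06 and 0.07.

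At the mitochondrion, Apaf1 read 387 and 580 in WT, 332 and 325 in Tbk1-/-, 349 and 769 in Ikbke-/-, and 618 and 740 in Tbk1-/- Ikbke-/- cells. The ratio was 2.20-fold in Ikbke-/- cells, while WT cells lay under the call, and the difference by Tbk1 was -0.75 ± 0.23 (limma adjusted p 0.19). Diablo, which frees caspases from their inhibitors, varied from 640 to 908 without a call. Trp53inp1, which is induced by p53 and promotes p53-dependent death, read 503 and 832 in WT, 286 and 330 in Tbk1-/-, 509 and 1370 in Ikbke-/-, and 1290 and 1640 in Tbk1-/- Ikbke-/- cells. Its ratio was 2.69-fold in Ikbke-/- and 1.65-fold in WT cells, with a difference by Tbk1 of -0.80 ± 0.25 (limma adjusted p 0.20).

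The Tbk1 comparison was then read over the 31 genes together. Casp4 and Fas were the 2 genes that passed in limma, both with a smaller ratio in the Tbk1-/- pairs, where 1.83% of the 9626 genes passed in that direction. In the other direction 0 of 31 passed, where 0.239% of all genes did. At an unadjusted p under 0.05, limma gave 12 of the 31 (16.5% of all genes). The median difference over the 31 genes was -0.21, beside 0.05 over all genes. Both Tbk1+/+ ratios lay above both Tbk1-/- ratios in 13 of the 31 genes, where this held for 18.4% of all genes, and below both in 5 (Bcl2l1, Bok, Casp6, Diablo and Fadd), where it held for 27.8%. Without scaling the first count was 6 of 32 genes above the floor, against 7.59% of all genes. The limma p-values treat the genotypes' pairs as repeats. With 1 residual and 5.34 prior degrees of freedom, the spread behind them and the standard errors is drawn mostly from all genes. It is thus not a measure of the spread between pairs for a single gene.

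**Figure D3:**
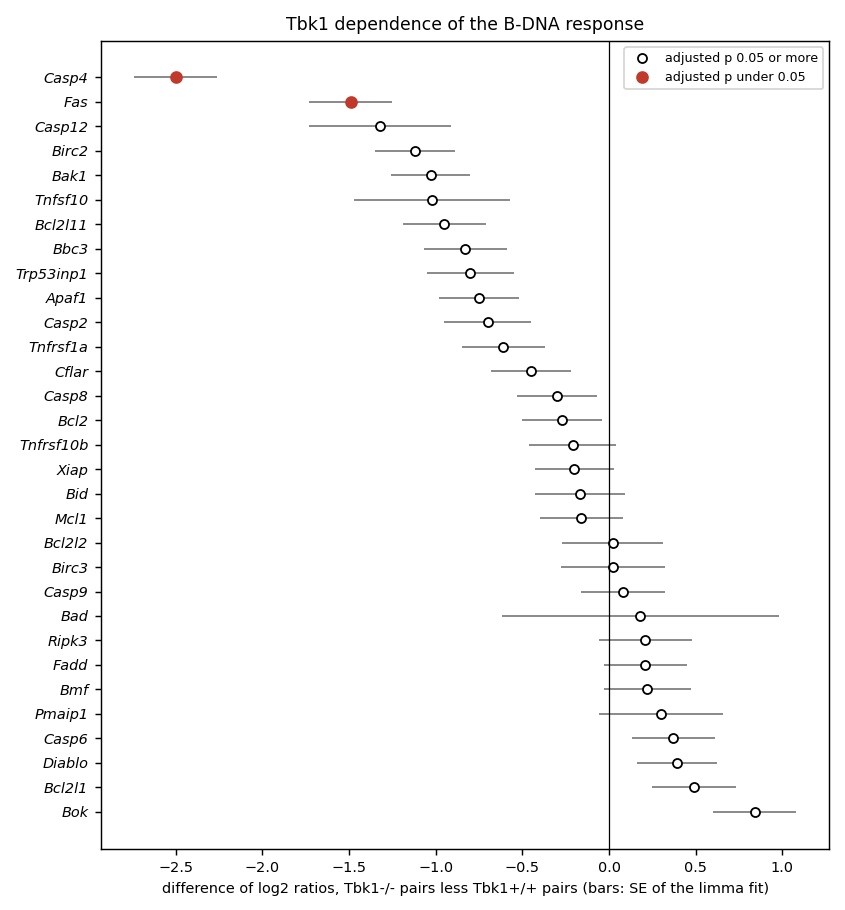
Difference of log2 B-DNA over mock ratios between the 2 Tbk1-/- pairs and the 2 Tbk1+/+ pairs for 31 apoptosis genes (x axis, bars are the standard error of the limma fit), sorted by the estimate. Filled points (Casp4 at -2.50 and Fas at -1.49) have an adjusted p under 0.05, and Bok lies farthest to the right at 0.84.

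The other limma comparisons called 0 of the 31 genes, and 0 of the 9626, after adjustment (0% of all genes). For the average response to B-DNA over the 4 genotypes, limma gave an unadjusted p under 0.05 for 7 of the 31 (Bid, Birc2, Casp12, Casp2, Fas, Mcl1 and Trp53inp1; 7.91% of all genes), and the lowest adjusted p among them was 0.61. For dependence on Ikbke this count was 4 in limma (Bbc3, Bcl2, Cflar and Pmaip1; 4.52% of all genes), with a lowest adjusted p of 0.98. That 10 genes were called in Ikbke-/- cells and 5 in WT cells therefore does not show that the response differed between them. The level by Tbk1 genotype gave 4 in limma (Bid, Casp4, Fas and Pmaip1; 3.79% of all genes) and the level by Ikbke genotype 0 (2.47% of all genes).

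Between mock arrays, the Tbk1-/- Ikbke-/- cells stood farthest from WT. Their calls were 4 higher of 31 (Bcl2l11, Birc2, Casp2 and Trp53inp1, at 6.15-fold, 3.47-fold, 3.07-fold and 2.57-fold), where 5.56% of all genes were, and 6 lower (Ripk3, Pmaip1, Cflar, Fas, Mcl1 and Bok), where 5.51% were. Tbk1-/- cells had 0 of 31 higher (2.23% of all genes) and 2 lower, Fas at least 2.42-fold and Pmaip1 (3.33%). Ikbke-/- cells had 0 of 31 higher (2.31%) and 3 lower, Bad, Cflar and Pmaip1 (3.13%). Fas was also at least 2.42-fold below WT in the Tbk1-/- Ikbke-/- cells. These ratios share the WT mock array, the one with the highest macrophage and leukocyte marker sum, and the Tbk1-/- Ikbke-/- mock array had the lowest deposited signal, with a scale factor of 3.58 against 1.96 to 2.79 on the arrays of other genotypes. Without that scaling, Casp2 (log2 ratio 0.86) and Trp53inp1 (0.60) lost their calls, Birc2 was at 1.03, and the lower log2 ratios of Ripk3, Cflar, Mcl1 and Bok were -2.92, -2.11, -1.81 and -1.81. In all, 2 genes were then called higher and 11 lower in the Tbk1-/- Ikbke-/- cells, and over all genes 117 higher and 2257 lower, against 535 and 530 with it.

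**Figure D4:**
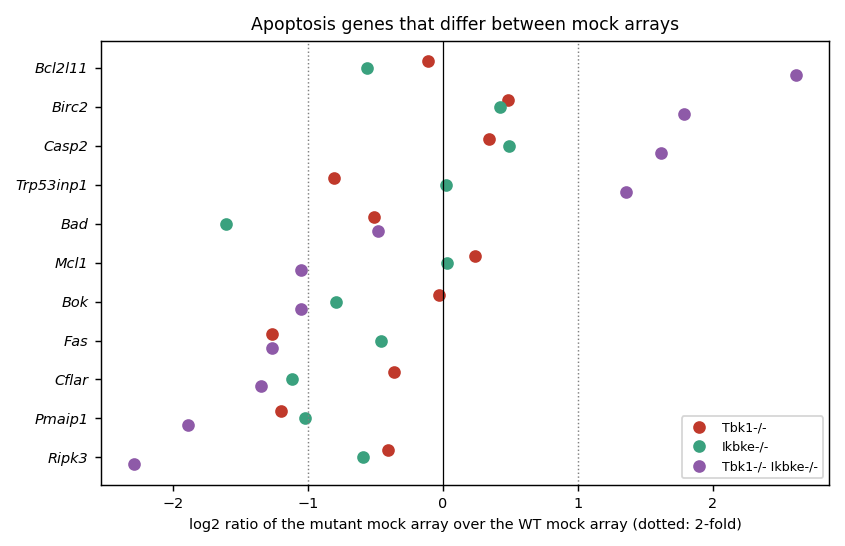
Log2 ratio of each mutant mock array over the WT mock array (x axis) for the 11 apoptosis genes called in 1 or more of the 3 genotypes, 1 point per genotype; dotted lines mark 2-fold. The Tbk1-/- Ikbke-/- points spread from -2.29 (Ripk3) to 2.62 (Bcl2l11).

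Other genes of the same pathways were counted from lists. Of 28 further death receptor signalling genes above the floor, Daxx, which encodes a nuclear partner of Fas and of chromatin proteins, was the 1 called with B-DNA (WT and Ikbke-/- pairs), a share near that over all genes (3.27% and 3.55% higher). It read 1057 and 5415 in WT, 1063 and 1214 in Tbk1-/-, 952 and 5400 in Ikbke-/-, and 969 and 1212 in Tbk1-/- Ikbke-/- cells, with a difference by Tbk1 of -2.17 ± 0.23 (limma adjusted p 0.0071). Of 9 necroptosis and pyroptosis genes above the floor, Zbp1, a nucleic acid sensor that engages Ripk3, and Il33, an alarmin, were called higher in WT cells (3.27% of all genes). Zbp1 read 16.5 and 988 in WT and 7.79 and 793 in Ikbke-/- cells, and was under the floor on the other 4 arrays. Il33 read 18.2 and 516 in WT and 32.9 and 314 in Ikbke-/- cells, and 60.7 or less on the other 4. Both genes passed the filter only through the B-DNA arrays of WT and Ikbke-/- cells. All their other values were raised to the floor. Their differences by Tbk1, -2.86 and -1.72, are therefore bounds, and no limma p-value is given for them. In Ikbke-/- cells Il18 was also called higher (208 and 470; 3.55% of all genes) and Gsdme lower (517 and 250; 1.64%).

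Of 9 further caspases and caspase substrates, 0 were called with B-DNA in any genotype, and with 0.291% to 3.55% of all genes called in each direction a list of this size is too short to tell from the background. Of 12 further Bcl2 family genes and regulators, 1 was called, Bnip3, lower at 2657 and 1234 in Tbk1-/- Ikbke-/- cells (0.748% of all genes). Of 30 p53 pathway genes, which include listed ones, Fas was called higher in WT cells (3.27% of all genes), and Bbc3, Fas, Apaf1 and Trp53inp1 higher and Sesn1 lower (346 and 158) in Ikbke-/- cells (3.55% and 1.64%). Fas was the 1 p53 pathway gene that passed the Tbk1 comparison in limma.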

How the data were processed

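RNA of 8 mouse embryonic fibroblast samples was measured on 1-colour Affymetrix arrays. The deposited values are signal intensities per probe set, made by the authors with MAS5 per the submitters' processing notes; the array named in the design text differs from the one whose probe set names the table holds. Deposited intensities were unequal between arrays (2% trimmed means of 139.8 to 255), so each array was scaled to a trimmed mean of 500. Of 22690 probe sets, 64 controls were left out; 20380 of the rest had 1 symbol in the platform annotation, 691 several and 1555 none. Symbols were updated through the RefSeq table (GRCm38.p6). Values below the 40th percentile (122.2) were raised to it, and log2 taken. limma 3.58.1 (R 4.3.3) fitted genes above the floor on 1 or more arrays, with genotype as a block and Benjamini-Hochberg adjustment over all 9626. For dependence on Tbk1 or Ikbke, 1 residual degree of freedom was left, moderated across genes. Array number limits the precision. The 8 values are given for each gene called in a pair of arrays or passing a limma comparison, or 2-fold apart between mock arrays; the others are given by range, and Bak1 was added because it passed under an alternative. The members and lists were chosen with earlier results of these data known. Alternatives were no further scaling, quantile normalization, other floors, the mean over probe sets, no filter, no Ikbke term and leaving out a pair.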

Additional observations from a re-analysis of the deposited data

Results flagged for a closer look

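The response of Casp4 to B-DNA differed between genotypes in limma: the log2 ratio of the Tbk1-/- pairs less that of the Tbk1+/+ pairs was -2.50 (adjusted p 0.0054), and both Tbk1+/+ pairs lay above both Tbk1-/- pairs. The same comparison gave -1.49 for Fas (limma adjusted p 0.038), with mock signals under the floor in both Tbk1-/- genotypes. Bad gave log2 B-DNA over mock ratios of opposite sign, -1.49 in WT cells against 1.57 in Ikbke-/- cells. The dependence of its response on Ikbke over all 4 pairs did not pass in limma (1.13 ± 0.80, adjusted p 1); WT and Ikbke-/- cells alone, with 1 pair of arrays each, were not tested. The second Bad probe set gave 0.13 and 0.42.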

How the results depend on the processing

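None of the named values that were called changed sign in another setting. The average response, the dependence on Ikbke and the level comparisons gave 0 adjusted calls in every setting run, which says little of their stability. Without further scaling, 2 listed genes were called higher and 2 lower in WT cells (178 and 725 of all genes). In Tbk1-/- Ikbke-/- cells 1 was called higher (Birc3, with 117 of all genes). Between the Tbk1-/- Ikbke-/- and WT mock arrays 2 were higher and 11 lower (117 and 2257 of all genes). The Tbk1 comparison then gave 1 listed gene, Casp4, and 161 of all genes, while Fas had a limma adjusted p of 0.092. With the floor at the 20th percentile, Fas was called higher in Tbk1-/- cells (1 gene, with 207 of all genes). Pmaip1 and Fas were called higher in Tbk1-/- Ikbke-/- cells (2, with 299 of all genes). Bik was called higher between the Tbk1-/- and WT mock arrays (1, with 420 of all genes). In the main setting these counts over all genes were 28, 52 and 215. The Tbk1 comparison at this lower floor gave 0 listed genes and 48 of all genes. At the 60th percentile, 6 listed genes were called higher in Ikbke-/- cells (249 of all genes). At that floor 0 were lower in Tbk1-/- mock (164 of all genes) and 3 lower in Tbk1-/- Ikbke-/- mock (351 of all genes). With the mean over probe sets, 0 listed genes were called lower in WT cells (118 of all genes), and the Tbk1 comparison gave 1 listed gene (Casp4) and 97 of all. It gave 0 and 0 with no filter on low values (1553 of all genes at an unadjusted limma p under 0.05), and 1 and 104 without the Ikbke term. Leaving out each pair of arrays together with the Ikbke term gave 0 to 0 listed genes and 0 to 0 of all (1175 to 1621 of all at an unadjusted limma p under 0.05). That fit has both fewer arrays and no Ikbke term, and their parts were not separated. The cause of the other changes was not tested. The labels number no replicates; every fit of the response pairs the 2 arrays of a genotype through the genotype block.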
